A study of Mus musculus with 29 samples.

Results

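The nuclear genes of oxidative phosphorylation were followed through mouse embryos made by nuclear transfer and through the cell type that donates the nucleus. Members were the gene symbols that begin with Nduf, Uqcr, Cox4 to Cox8 or Atp5, together with Sdha, Sdhb, Sdhc and Sdhd, with pseudogene names ending in -ps left out. This choice used names alone and gave 92 of the 24448 gene rows. By name they fell into 38 subunits and 7 assembly factors of complex I, 4 genes of complex II, 8 of complex III, 18 of complex IV and 17 of complex V. A few names do not match the place of the protein: Ndufa4 and Ndufa4l2 are complex IV proteins, Cox7a2l is a supercomplex assembly factor, Atp5s is a coupling factor and Atp5sl is an assembly protein of complex I. All are counted below where their names put them.

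RNA was measured in 29 libraries, each titled as 1 embryo or 1 cell, from full-length cDNA (Smart-seq2) that carries no molecular identifiers. Enucleated oocytes were reconstructed with the nucleus of a cumulus cell, the somatic cell that surrounds the oocyte, using animals of the BDF1 strain. Activation took 6 h in medium with 10 mM strontium, EGTA and an agent labelled CB, and embryos were then assigned at random to medium with or without hydroxyurea (HU), an inhibitor of ribonucleotide reductase. The 9 control embryos had no HU, and the 8 HU embryos were exposed to 10 uM HU until it was replaced at 24 h. All were collected at the 2-cell stage, 28 h after activation. The other 12 libraries were single cumulus cells. The labels do not say whether an embryo library holds both blastomeres. No day, female or culture is named in the labels, so a p-value speaks of the spread among these libraries, and the 12 cells count as 1 sample and carry no test.

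Oxidative phosphorylation passes electrons from NADH through complex I, or from succinate through complex II, to ubiquinone, complex III, cytochrome c and complex IV, and the proton gradient so formed drives ATP synthesis by complex V. Complexes I, III, IV and V combine nuclear subunits with a few encoded by mitochondrial DNA, whereas complex II is wholly nuclear. Several complex IV subunits and the c subunit of complex V have alternative isoforms, some of which are known chiefly from muscle, lung or testis. Mouse oocytes and cleavage embryos hold many mitochondria inherited from the egg and draw on pyruvate oxidation, and cumulus cells are known as a glycolytic cell type that supplies the oocyte with pyruvate.

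Gene counts per library were 1801261 to 3472116 in control embryos, 2442541 to 3757492 in HU embryos and 317195 to 4051494 in cumulus cells. Reads of Rn45s, the ribosomal RNA precursor, took 16.2% to 32.5% of control libraries and 49.3% to 86.6% of cell libraries. The labelled cell types were checked by the summed level of their markers. The 19 cumulus and granulosa markers, 18 of which also had a count in control embryos, summed to 401 to 11667 CPM in the cells and 121 to 229 CPM in control embryos (counts scaled to a common library total). The 10 oocyte markers summed to 0 to 4.27 CPM in the cells, where Zp1, Zp2, Zp3, Gdf9, Oosp1 and Ooep had no count, and to 3768 to 5179 CPM in control embryos. All 6 immune markers had a count in the cells, with a sum of 156 CPM in cell 2 and at most 32.7 CPM in the others, and their part in the results was not tested. Cumulus cell 2 stood apart, with Rn45s at 86.6% of counts, 49 members detected and members at 0.055% of counts. Cell 11 had Rn45s at 71.2% and members at 0.207%, and cell 10 had the fewest counts, members at 1.35% and mitochondrially encoded RNA at 0.00%. Results on the cells are therefore also given without these 3. Among the embryos, HU embryo 4 had the fewest detected genes (12887) and the highest share of counts in members (0.721%).

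Nearly the whole set was detected in embryos. A count was present for 81 of 92 members in all 17 embryos, and each embryo detected 84 to 88 members, against 49 to 83 in single cells. Members together took 0.418% to 0.660% of gene counts in control embryos and 0.441% to 0.721% in HU embryos, ranges that overlapped over most of their length. Ndufs5, a small complex I subunit, had no count in any control embryo or cell and 2 counts in all HU embryos together. Its transcript is at least 95% identical over at least 50% of its length to that of 1 gene elsewhere, so reads may have been assigned away from it.

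Per length and summed over its genes, complex IV was the highest group in control embryos and complex II, with 4 genes, the lowest. Levels are given here in FPKM, read counts divided by transcript length and library total. The FPKM of complex IV members summed to 2774 ± 404 in control embryos (SD, n = 9), against 1395 ± 233 for complex V, 1250 ± 164 for complex I subunits, 361 ± 81.3 for complex III and 92.5 ± 24.3 for complex II. Complex I assembly factors summed to 154 ± 21.7. Sums depend on the number of genes in a group. The median per gene was 70.7 FPKM for complex IV, 64.8 for V, 39.9 for III, 23.7 for II and 19.2 for complex I subunits. The assembly factors had a median of 9.27 FPKM. A few transcripts held much of the sums. Cox8a, the smallest complex IV subunit, was at 1011, 1362 and 1844 FPKM in control embryos (lowest, median and highest) and took 50.5% of the complex IV sum. It ranked 21 among the 18453 genes with an FPKM above 0 in a control embryo. Atp5b, the catalytic beta subunit of complex V, was at 217, 266 and 435 FPKM and took 21.3% of the complex V sum. Ndufa4 was at 109, 213 and 348 FPKM, the highest of the genes named as complex I subunits, followed by the accessory subunit Ndufb6 at a mean of 127 FPKM.

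The other complexes were more even. In complex III the highest mean in control embryos was 4.78 times the lowest: Uqcr10, a small subunit, was at 78.3 FPKM, Uqcrh, the hinge protein that contacts cytochrome c1, was at 77.8 FPKM, and the core protein Uqcrc2 was at 16.4 FPKM. In complex II the span was 2.53 times, from the membrane anchor Sdhd at 12.8 FPKM to the iron-sulfur subunit Sdhb at 32.4 FPKM, with the flavoprotein Sdha at 30.8 FPKM. The order within both complexes was not firm at its top, since Uqcr10 ranged from 36.3 to 151 FPKM and Uqcrh from 40.1 to 121 FPKM, and Sdhb and Sdha overlapped over the whole range of Sdha. Assembly factors of complex I were led by Ndufaf2 at 60.4 FPKM and Ndufaf4 at 55.9 FPKM, against 2.43 FPKM for Ndufaf3. Atp5s was the lowest complex V name at 4.26 FPKM.

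**Figure D1:**
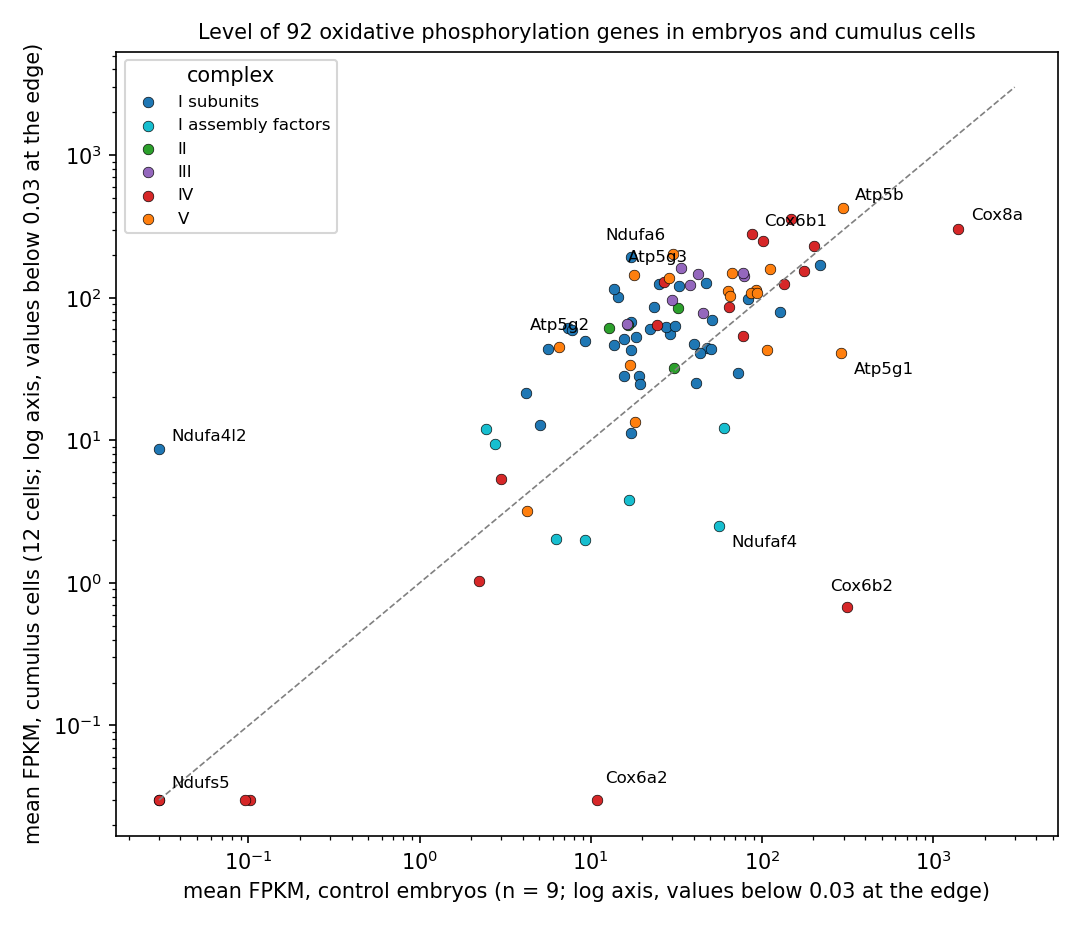
Mean FPKM of each of the 92 members in control embryos (x axis, n = 9) and in 12 cumulus cells (y axis), both on log axes with values below 0.03 drawn at the edge, coloured by complex; the dashed line marks equal levels. Of the members, 64 lie above the line, while Cox6b2, Cox6a2, Atp5g1, Ndufaf4 and Cox8a lie far below it.

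Spread between control embryos differed between complexes. The coefficient of variation (SD over mean of library-scaled CPM) had a median of 27.2% over the 13 complex IV members that passed the filter on low counts, and of 40.6% for complex I subunits, 39.0% for II, 46.0% for III and 40.0% for V. Over the 82 members that passed, the median was 39.1%, against 44.2% for all 11476 genes tested. Cox5b, a structural complex IV subunit, varied least at 14.5%, and Ndufaf1, a complex I assembly factor, varied most at 123%. Both genes are named for these extremes, after their values were seen. In HU embryos the medians were 46.2% for members and 49.0% for all genes. By complex they were 36.1% for IV, 46.2% for complex I subunits, 45.8% for II, 52.1% for III and 41.8% for V. The assembly factors had a median of 48.2% in control embryos and 38.1% in HU embryos. Levels also differed between the complexes, and whether spread followed level was not tested.

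The most abundant Cox6b transcript of the embryos was Cox6b2, the isoform known from testis, and not the widely expressed Cox6b1. Both encode subunit VIb, which faces the intermembrane space where complex IV monomers meet. Cox6b2 (chromosome 7, 4751792 to 4753094, GRCm38, minus strand) was at 254, 312 and 376 FPKM in control embryos and at 187, 363 and 475 FPKM in HU embryos (lowest, median and highest). Cox6b1 (chromosome 7, 30616861 to 30626151, minus strand) was at 34.4, 86.2 and 138 FPKM in controls and at 53.5, 89.3 and 186 FPKM in HU embryos. Cox6b2 was the higher in 9 of 9 control and 8 of 8 HU embryos, at 3.59 times Cox6b1 by mean FPKM in controls. Its share of the pair was 78.5% ± 5.29 (SD, n = 9) in controls and 78.0% ± 7.37 (SD, n = 8) in HU embryos, with overlapping ranges.

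In the cumulus cells the pair was reversed. Cox6b1 was at 4.23, 282 and 549 FPKM and had a count in all 12 cells. Cox6b2 had 7 counts over all cells, 0.291 CPM with an exact 95% Poisson interval of 0.117 to 0.600, against 194 CPM in the summed control embryos. All 7 counts were in cell 2, the library with 86.6% Rn45s and also the one with the most oocyte marker RNA, 4.27 CPM; their part in these counts was not tested. Its share of the pair was 0.241% over 12 cells and 0.000% without cells 2, 10 and 11.

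Reads of the isoforms can be told apart by sequence. A stretch of 90 coding bases near the end of each Cox6b coding sequence is shown because it carries 39 differences, in capitals. The aligned coding sequences were 57.8% identical. The stretches are from GENCODE M21 transcripts, coding bases 166 to 255 of the 258 of Cox6b1 and 172 to 261 of the 264 of Cox6b2.
Cox6b1: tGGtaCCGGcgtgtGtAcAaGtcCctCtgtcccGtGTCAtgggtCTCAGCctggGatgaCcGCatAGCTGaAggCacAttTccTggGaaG
Cox6b2: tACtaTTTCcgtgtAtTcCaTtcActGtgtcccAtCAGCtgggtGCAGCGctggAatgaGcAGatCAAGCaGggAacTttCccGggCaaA

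A switch of the same kind separated the c subunit genes of complex V. Atp5g1, Atp5g2 and Atp5g3 encode the same mature protein, the ring subunit of the proton channel, behind different import presequences. Atp5g1 (chromosome 11, 96068852 to 96075670, minus strand) was at 223, 258 and 546 FPKM in control embryos, 109, 249 and 539 FPKM in HU embryos and 0, 46.1 and 68.1 FPKM in cumulus cells. Atp5g3 (chromosome 2, 73908447 to 73911326, minus strand) was at 17.8, 26.9 and 51.5 FPKM in controls, 2.89, 14.4 and 65.8 FPKM in HU embryos and 17.7, 122 and 435 FPKM in cells. Atp5g2 (chromosome 15, 102662864 to 102672352, minus strand) was at 1.72, 5.01 and 12 FPKM in controls, 3.16, 6.53 and 18.5 FPKM in HU embryos and 0, 46.6 and 92.6 FPKM in cells. Atp5g1 was above Atp5g3 in 17 of 17 embryos, and Atp5g3 above Atp5g1 in 12 of 12 cells.

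As a share of the summed Atp5g FPKM, Atp5g1 held 88.3% ± 4.72 in controls (SD, n = 9), 87.7% ± 9.27 in HU embryos (SD, n = 8) and 18.4% over the cells. Atp5g3 held 9.53% ± 4.30, 8.82% ± 9.09 and 61.2% in the same order, and Atp5g2 held 2.19% ± 1.21, 3.48% ± 4.47 and 20.4%. The sum of the 3 genes differed less than its parts, at 325 ± 92.3 FPKM in control embryos, 323 FPKM in HU embryos and 223 FPKM in cells. Transcripts at least 95% identical over at least 50% of the length exist for 1 other gene in the case of Atp5g1 and 2 in the case of Atp5g2, so their counts carry that uncertainty.

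A stretch of 90 coding bases near the end of each Atp5g coding sequence is shown. The stretches encode the same part of the mature protein yet differ at 25 positions, in capitals. They are coding bases 316 to 405 of the 408 of Atp5g1, 346 to 435 of the 438 of Atp5g2 and 331 to 420 of the 423 of Atp5g3, from GENCODE M21. Whole coding sequences were 69.4% identical for Atp5g1 and Atp5g2, 67.1% for Atp5g1 and Atp5g3 and 66.2% for Atp5g2 and Atp5g3.
Atp5g1: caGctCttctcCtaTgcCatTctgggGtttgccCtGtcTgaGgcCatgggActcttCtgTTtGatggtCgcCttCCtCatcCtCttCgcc
Atp5g2: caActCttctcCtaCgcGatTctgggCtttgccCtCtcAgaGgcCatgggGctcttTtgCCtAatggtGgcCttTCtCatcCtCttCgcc
Atp5g3: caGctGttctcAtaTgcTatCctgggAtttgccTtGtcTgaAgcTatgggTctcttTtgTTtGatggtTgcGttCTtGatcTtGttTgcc

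**Figure D2:**
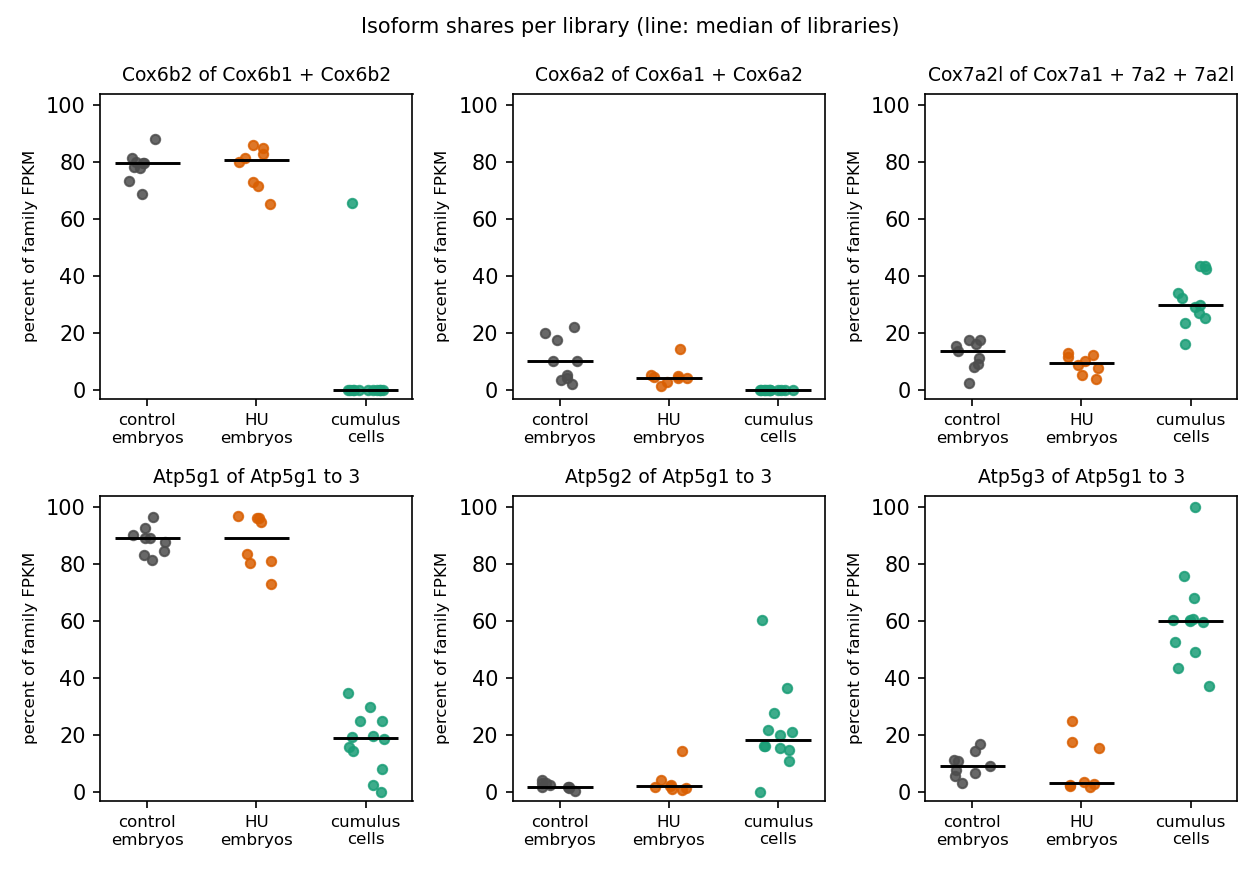
Share of each family's FPKM held by 1 isoform (y axis, percent) per library, for 9 control embryos, 8 HU embryos and the cumulus cells with a count in the family; the line is the median of libraries. Cox6b2 and Atp5g1 are high in every embryo, and the single cell with a Cox6b2 share above 0 is cell 2.

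Among the remaining tissue isoforms, Cox6a2 was the one that embryos carried and cells lacked. Cox6a2, the heart and muscle form of subunit VIa, had a count in all 17 embryos and was at 2.19, 7.84 and 22.0 FPKM in controls and 1.85, 6.01 and 13.6 FPKM in HU embryos. It held 10.5% ± 7.57 of the Cox6a pair in controls and 5.21% ± 3.90 in HU embryos, with overlapping ranges, and the widely expressed Cox6a1 held the rest. None of the 12 cells had a Cox6a2 count, which allows up to 0.125 CPM for 3 counts over the group, against 6.83 CPM in the summed control embryos, so its level was at least 54.8-fold lower in cells. Cox6a2 overlaps Itgad on the other strand, and Smart-seq2 does not mark strand.

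Ndufa4l2, a relative of Ndufa4 known for its induction by hypoxia, had the opposite pattern. It had 157 counts spread over 6 of 12 cells, no count in control embryos and 3 counts in HU embryo 2, so it was at least 51.6-fold higher in cells than in control embryos. It held 4.85% of the Ndufa4 pair in cells, or 3.48% without cells 2, 10 and 11. Its locus overlaps Shmt2 on the other strand.

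Cox4i2, Cox7a1, Cox7b2, Cox8b and Cox8c were scarce throughout. Cox4i2, known from lung and for its response to oxygen, held 1.93% ± 2.06 of the Cox4 pair in controls, 2.71% ± 3.29 in HU embryos and 1.49% in cells, or 0.564% without cell 10. Cox7a1, the heart and muscle form of subunit VIIa, held 1.08% ± 1.06 of its family in controls, 2.48% ± 1.73 in HU embryos and 0.468% in cells, where 11 of 12 counts came from cell 9 and the share was 0.044% without it. Cox8b and Cox8c, known from muscle and testis, had 1 count each over all control embryos and none in the other groups, and Cox7b2, another testis form, had no count in any library. Cox7a2l was not scarce: it held 12.3% ± 5.10 of the Cox7a family in controls, 9.08% ± 3.35 in HU embryos and 29.3% in cells, with Cox7a2 taking most of the rest.

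No member passed the test between HU and control embryos. Of the 82 members that passed the filter on low counts, 0 passed an adjusted p of 0.05 in the edgeR quasi-likelihood test, as did 0% of all 11476 genes tested, and the smallest adjusted p of a member was 0.829. DESeq2, run without that filter, also called 0 of 91 members, against 0.0154% of 19475 genes. At an unadjusted p under 0.05, edgeR gave 10 of 82 members, where the share of all genes was 5.85%. DESeq2 also gave 10, but of 91 members, where the share was 5.26% of 19499 genes. Of the edgeR members, 9 were higher in HU embryos (3.81% of all genes) and 1 was lower (2.04% of all genes). Without HU embryo 5 the count was 6, and it was also 6 without HU embryo 7. For 0 members did the ranges of the groups not overlap, which held for 0.0174% of all genes toward higher and 0% toward lower values in HU embryos. The 10 genes not tested were Cox4i2, Cox7a1, Cox7b2, Cox8b, Cox8c, Ndufa4l2, Ndufaf3, Ndufb4, Ndufb7 and Ndufs5.

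Small positive fold changes were more frequent than negative ones. The log2 fold change (HU minus control) was above 0 for 59 of 82 members (72.0%), where the share over all genes was 53.6%, and its median was 0.19 for members and 0.04 for all genes. The member median was 0.13 without control embryo 7. With same-numbered embryos treated as blocks it was 0.124, and that of complex IV was 0.064. Within groups, the median over members varied between embryos with an SD of 0.205 (log2), more than the member median itself. Members measured in the same embryos are not independent replicates, so the counts of genes above 0 carry no test. By complex the median was 0.29 for 34 complex I subunits, 0.37 for complex II, 0.17 for 13 complex IV members and 0.19 for complex V, and near 0 for complex III (0.03) and for complex I assembly factors (0.05). All 4 complex II genes, 25 of 34 complex I subunits and 14 of 17 complex V genes were above 0, as were 4 of 8 in complex III. The complex medians leaned on single embryos: that of complex IV was 0.01 without HU embryo 1, that of complex II 0.22 without HU embryo 4, and that of complex V 0.11 without control embryo 7. Without HU embryo 7 the complex III median was -0.06, and without HU embryo 8 that of the assembly factors was -0.01. Standard errors of single members had a median of 0.31 and a minimum of 0.15 on this scale, which bounds what 17 embryos could show.

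**Figure D3:**
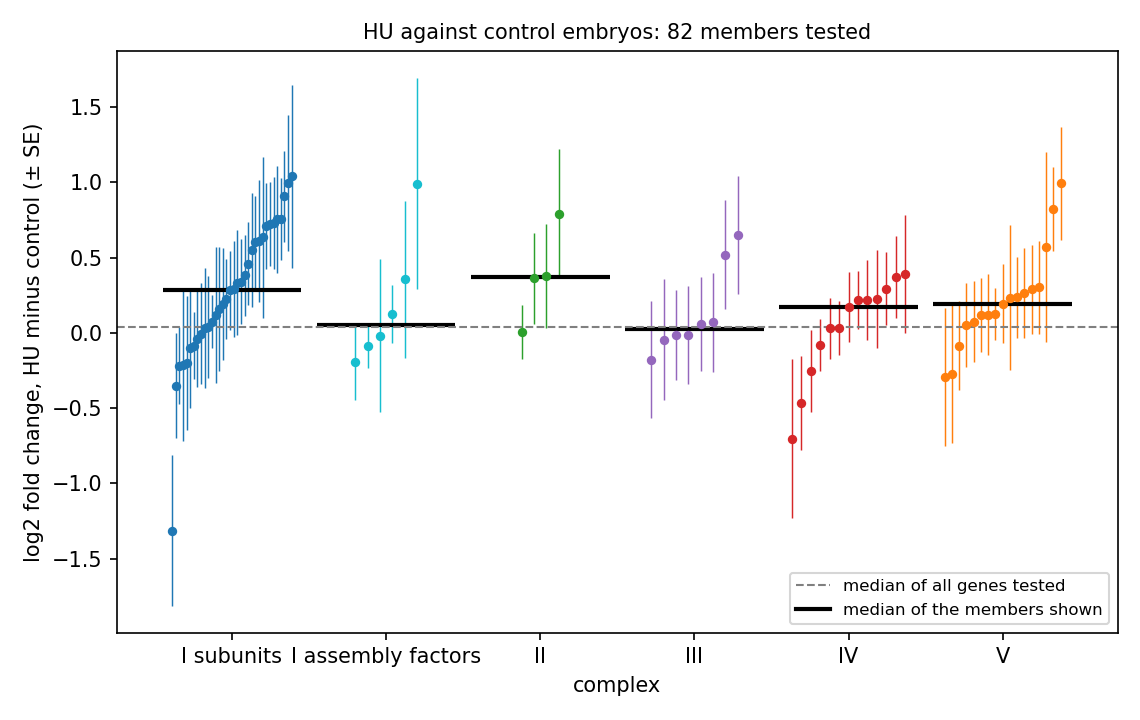
Log2 fold change of HU over control embryos (y axis) for the 82 members tested, as points ± SE ordered by value within each complex; black bars are the medians of the members shown and the dashed line is the median of all 11476 genes (0.04). The bars for complexes I, II, IV and V lie above the dashed line, and those for complex III and the assembly factors lie close to it.

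Of the 10 members at an unadjusted p under 0.05, 8 were among the 34 complex I subunits tested and the others among 17 complex V genes. The 4 genes tested in complex II, 8 in III, 13 in IV and 6 complex I assembly factors gave none. Over all genes the share was 5.85%, and none of the 10 passed adjustment. Ndufb9, an accessory subunit of the membrane arm, was at 12, 24.2 and 28.5 CPM in controls (lowest, median and highest, scaled by edgeR's TMM library factors) and at 18.5, 35.0 and 80.2 CPM in HU embryos. The highest control was exceeded by 5 of 8 HU embryos. Its log2 fold change was 0.91 ± 0.30 (SE; edgeR unadjusted p = 0.0061, adjusted p = 0.829). Ndufb9 shares its strand and locus with the predicted gene Gm49356, so its reads may be divided. Atp5j, the coupling factor 6 subunit in the stalk of complex V, was at 8.37, 16.6 and 21.7 CPM in controls and 12.7, 29 and 50.2 CPM in HU embryos. For this gene 6 of 8 HU embryos lay above the highest control, and the log2 fold change was 0.82 ± 0.28 (SE; edgeR unadjusted p = 0.00722, adjusted p = 0.829). Atp5j overlaps Gabpa on the opposite strand; Gabpa, a transcription factor of respiratory genes, had a log2 fold change of 0.37 ± 0.39 (SE).

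Ndufa9, which sits at the junction of the complex I arms, was at 20.4, 61.7 and 83.5 CPM in controls and 45.8, 83.0 and 160 CPM in HU embryos, a log2 fold change of 0.76 ± 0.27 (SE; edgeR unadjusted p = 0.0111). Atp5d, the delta subunit of the complex V stalk, was at 14.6, 26.1 and 56.0 CPM in controls and 12.4, 46.3 and 123 CPM in HU embryos, a log2 fold change of 1.00 ± 0.38 (SE; edgeR unadjusted p = 0.0143). The HU values of Atp5d spread over the entire control range, with 3 of 8 above it and 1 below. Ndufa5, an accessory subunit of the matrix arm, was the member with the lower level: 1.80, 6.82 and 13.4 CPM in controls and 0.693, 3.06 and 5.58 CPM in HU embryos. All 8 HU embryos lay below the control median, 1 lay below the lowest control, and the log2 fold change was -1.31 ± 0.50 (SE; edgeR unadjusted p = 0.0156). The remaining 5 are named because of these p-values and not by the rule given with the methods: Ndufa7, Ndufc1, Ndufa13, Ndufa12 and Ndufb10, with log2 fold changes of 0.72, 0.71, 0.73, 1.00 and 0.75. Ndufa7 was at 0.47 without HU embryo 7. For Ndufc1 and Ndufa12, 8 of 8 HU embryos lay above the control median.

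**Figure D4:**
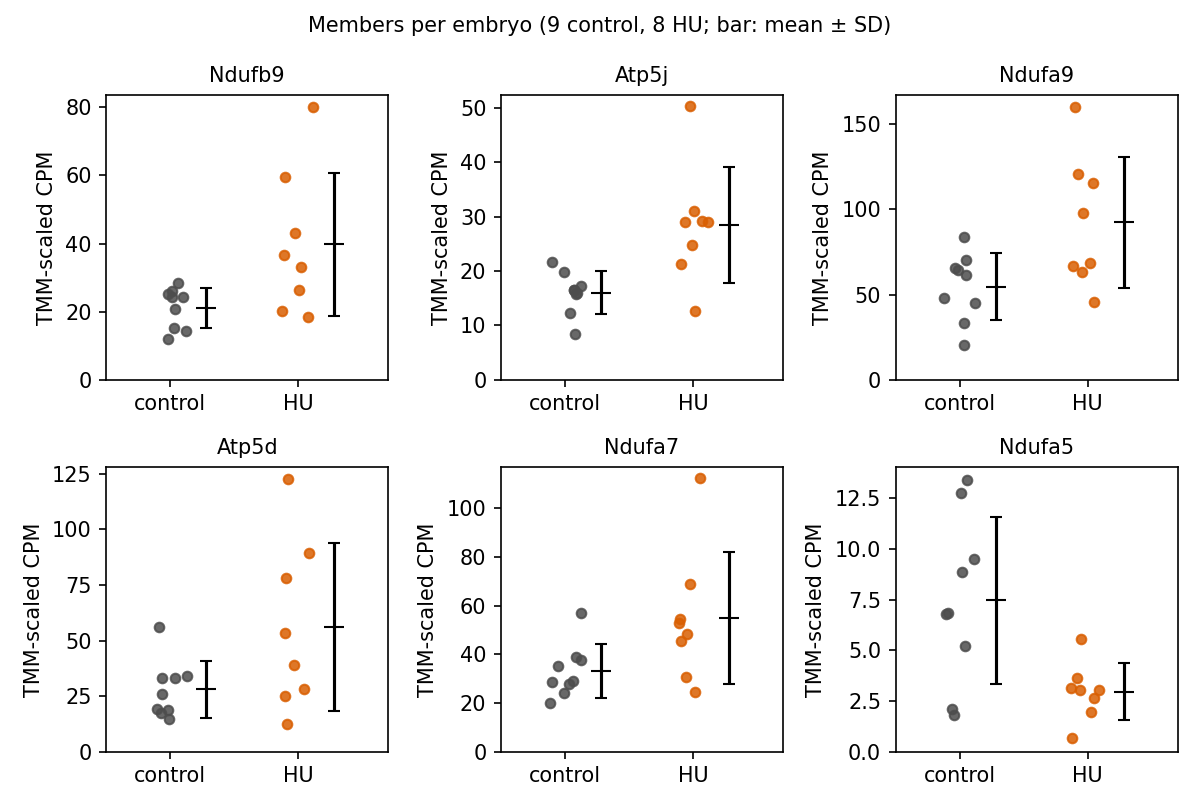
TMM-scaled CPM (y axis) of 6 of the members at an unadjusted p under 0.05 in each of 9 control and 8 HU embryos, with mean ± SD beside the points. Control and HU values overlap for all 6, and the HU points are the more scattered for all but Ndufa5.

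Outside complex I and V the smallest p-values were larger. Sdhd, which was at 0.702, 15.9 and 27.7 CPM in controls and 10.4, 23.3 and 56.6 CPM in HU embryos, had a log2 fold change of 0.79 ± 0.43 (SE; edgeR unadjusted p = 0.0775). Uqcrq, a small complex III subunit, had one of 0.65 ± 0.39 (SE; unadjusted p = 0.109), and Cox6a1 one of 0.37 ± 0.27 (SE; unadjusted p = 0.184). These 2 leaned on 1 embryo each, since Uqcrq was at 0.29 without HU embryo 7 and Cox6a1 at 0.15 without HU embryo 1. Cox7a2l stood at -0.47 ± 0.31 (SE; unadjusted p = 0.15), and all 8 HU values were below the median of controls. The most abundant gene of each group in controls was at 0.28 ± 0.26 (SE) for Ndufa4, 0.13 ± 0.19 (SE) for Ndufaf2, 0.38 ± 0.35 (SE) for Sdhb, 0.07 ± 0.33 (SE) for Uqcr10, -0.08 ± 0.17 (SE) for Cox8a and 0.13 ± 0.17 (SE) for Atp5b. The embryo isoforms Atp5g1 and Cox6b2 were at 0.05 ± 0.28 (SE) and 0.22 ± 0.19 (SE). Ndufaf1, the most variable factor, stood at 0.99 ± 0.70 (SE), or 0.26 without HU embryo 7 and 1.60 without control embryo 3.

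Complexes I, II, III and V held a larger part of the counts in cumulus cells than in control embryos, and complex IV and the complex I assembly factors a smaller part. Summed over all cells, complex I members were at 1796 CPM, against 955 CPM in the summed control embryos, and complex III members at 670 CPM against 272 CPM. Complex IV members were at 1270 CPM in cells against 1659 CPM, an order that turned to 3255 against 2220 CPM without Rn45s and mitochondrially encoded rows. The assembly factors were at 69.0 CPM in cells against 320 CPM, and lower on that scale too. By library, the members' share of counts was above every embryo in 6 of 12 cells and below every embryo in cells 2 and 11.

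Counts of single genes were summed over the 12 cells and over the 9 control embryos and compared as log2((CPM + 1)/(CPM + 1)), with no test. Of 81 members at 10 CPM or more in either group, 37 were at least 2-fold higher in cells, where 17.5% of the 10038 such genes were, and 9 were at least 2-fold lower, where 54.4% of genes were. The median log2 ratio was 0.87 for members and -1.24 for all genes. By complex it was 0.97 for I, 1.32 for II, 1.30 for III, 0.28 for IV and 0.54 for V, and -1.91 for the assembly factors. Without cells 2, 10 and 11, 42 members were higher and 9 lower, and the median was 1.01.

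The size of the ratio depends on what the counts are divided by, since Rn45s took 49.3% to 86.6% of the cells' counts and 16.2% to 32.5% of the control embryos'. With Rn45s and mitochondrially encoded rows left out of the library sizes, 61 members were at least 2-fold higher and 6 lower, the median was 1.80 for members and -0.18 for all genes, and the ratio of 16 members changed sign. The distance between the medians of members and of all genes was 2.11 in the first scaling and 1.99 in the second. On this second scale members took 0.597% to 0.830% of counts in control embryos and 0.489% to 2.81% in cells, where all but cells 2 and 11 lay above every embryo. The values are shares of the counts and not amounts per cell: the median library held 15.6 gene counts per spike-in count in control embryos and 1.26 in cells.

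**Figure D5:**
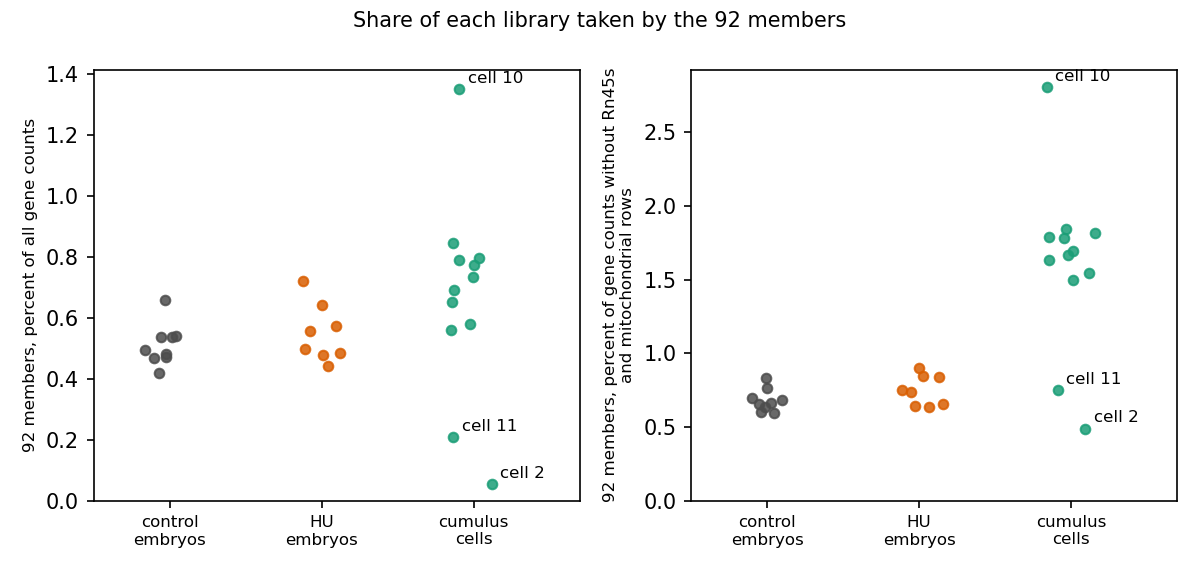
Percent of a library's gene counts taken by the 92 members (y axis), with all gene rows in the denominator (left) and without Rn45s and mitochondrially encoded rows (right), for each embryo and cell. Cells 2, 10 and 11 are labelled; the other cells lie above all embryos in the right panel.

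Among complex I subunits at 10 CPM or more in either group, Ndufa6 and Ndufs4 had the highest ratios to control embryos. Ndufa4l2, described above, is below that level at 6.53 CPM in cells. Ndufa6, an accessory subunit of the LYR family, was at 10.2, 198 and 411 FPKM in cells, against 0.621, 14.5 and 41.8 FPKM in controls, a log2 ratio of 3.32 from 104 CPM (exact 95% Poisson interval 100 to 108, counting error only) and 9.52 CPM. Ndufs4, an accessory subunit of the matrix arm, had a log2 ratio of 2.88 and rank 835 by FPKM in cells, against rank 7362 in controls. Ndufab1, the acyl carrier protein, was lower in cells, at 27.9 FPKM (median) against 72.7 FPKM, with a log2 ratio of -1.19. Without Rn45s and mitochondrial rows it was at -0.28. Transcripts of 2 other genes are at least 95% identical to that of Ndufab1 over at least 50% of its length. Ndufa9 was at -0.85, or 0.06 without Rn45s and mitochondrial rows.

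The assembly factors divided. Ndufaf4, which acts early in building complex I, was at 44.1, 54.5 and 70.0 FPKM in controls and 0, 1.08 and 11.1 FPKM in cells, so that no cell reached the lowest embryo, with a log2 ratio of -4.20. Ndufaf5, Ndufaf2 and Ndufaf7 were at -2.08, -2.01 and -1.81. Ndufaf1 and Ndufaf3 were each at 1.96, but from few cells. Ndufaf1 had a count in 5 of 12 cells, with 171 of 413 counts in cell 1, and was at 1.39 without it. Ndufaf3 had 158 of 311 counts in cell 7 and was at 1.16 without it. Without Rn45s and mitochondrial rows Ndufaf4 was still at -3.34, and Ndufaf2, Ndufaf5 and Ndufaf7 were at -1.15, -1.28 and -0.95.

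In complex II 3 of 4 genes were at least 2-fold higher in cells. Sdhd was at 1.97, Sdhc, the partner membrane anchor, at 1.5 and Sdhb at 1.13, while Sdha was at -0.10, or 0.83 without Rn45s and mitochondrial rows. In complex III Uqcrq was at 2.37 and Uqcrc2 at 1.85, and 5 of 8 genes were at least 2-fold higher. In complex V, Atp5j was at 2.87, Atp5d at 2.58 and Atp5g2 at 2.50, against -2.68 for Atp5g1 and -1.25 for Atp5k, the e subunit of the membrane part. Without Rn45s and mitochondrial rows Atp5g1 was at -1.77 and Atp5k at -0.36. A transcript of 1 other gene is at least 95% identical to that of Atp5k over at least 50% of its length. Complex IV members differed in direction. Cox7c was at 2.12, Cox6b1 at 1.70 and Cox4i1, the main form of subunit IV, at 1.32, while Cox8a was at -2.16 and Cox6b2 at -7.24. Cox7c and Cox4i1 each overlap another gene on the same strand. A transcript of 1 other gene is also at least 95% identical to that of Cox7c over at least 50% of its length. Cox8a was still the second highest complex IV transcript of the cells, at 0, 317 and 539 FPKM, after Cox4i1 at 4.66, 375 and 516 FPKM.

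The comparisons of HU embryos and of cells share their control embryos, so their values are set side by side without a measure of likeness. Atp5j and Atp5d stood at 0.82 and 1.00 in HU embryos and at 2.87 and 2.58 in cells. Ndufb9 stood at 0.91 and 1.86, Ndufa9 at 0.76 and -0.85, and Ndufa5 at -1.31 and 1.48, HU embryos first.

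Other genes of the pathway gave no called member either. In HU against control, edgeR called 0 genes in each of 8 lists, and DESeq2's 3 called genes are counted above over all genes. At an unadjusted p under 0.05 there were 1 higher and 1 lower gene among 21 tested complex IV assembly factors, 1 higher gene among 16 of mitochondrial biogenesis, and none in the lists for complex I assembly (9 tested), complex II assembly (3), complex III (7), cytochrome c (3) or complex V (6). Cox15, which makes heme a for complex IV, was at 5.72 ± 4.58 CPM in controls and 13.4 ± 6.00 CPM in HU embryos, a log2 fold change of 1.21 ± 0.55 (SE; edgeR unadjusted p = 0.0388). Lrpprc, which stabilizes mitochondrial mRNA, was at 35.1 ± 10.7 and 22.8 ± 8.14 CPM, with -0.62 ± 0.29 (SE; unadjusted p = 0.0462). Pprc1, a coactivator of NRF1, was at 47.2 ± 18.4 and 74.2 ± 23.3 CPM, with 0.65 ± 0.27 (SE; unadjusted p = 0.0256). These 3 are named for their p-values.

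Subunits encoded by mitochondrial DNA stood on the other side of 0 from most nuclear ones. Of 10 tested, 0 were above 0 in HU embryos and the median was -0.22, with no gene at an unadjusted p under 0.05; they are read from shared polycistronic RNA and are not independent of each other. In cells, 8 of 9 mitochondrially encoded subunits at 10 CPM or more were at least 2-fold lower than in control embryos, with a median log2 ratio of -1.97, where 54.4% of all genes were and the median was -1.24. These ratios are on the scale that includes Rn45s, and those of the mitochondrially encoded subunits were not computed without it. The median of all genes was -0.18 with Rn45s and mitochondrially encoded rows left out. How reads that map to several places were counted is not given in the sources used here, which limits what the values of these genes mean. Of 14 regulators of biogenesis at 10 CPM or more, 9 were at least 2-fold lower in cells and 0 higher, and their median of -1.19 lay near that of all genes. Nrf1, a transcription factor of respiratory genes, was at 76.1 ± 14.3 CPM in control embryos (SD, n = 9), and its log2 ratio in cells was -3.67. Tfam, which packages and transcribes mitochondrial DNA, was at 19.6 ± 8.71 CPM in controls and 35.9 ± 21.5 CPM in HU embryos (log2 fold change 0.87 ± 0.44, SE; edgeR unadjusted p = 0.0594).

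Some member promoters held letters known for respiratory genes. A RefSeq promoter, 250 bases before to 50 after the gene start on GRCm38.p6, was matched for 76 of 92 members and 27025 genes in all. The core of the NRF1 site, the palindrome CGCATGCG, lay in 11 of 76 member promoters (14.5%) and in 2.07% of all. With a base left free, as CGCANGCG, which includes every match of the palindrome, it lay in 29 (38.2%) and 9.22%. Searched on both strands, the YY1 letters AAGATGGC lay in 11 (14.5%) and 3.19%, the ETS letters CCGGAAGT in 5 (6.58%) and 4.31%, the ERR letters TCAAGGTCA in 2 (2.63%) and 0.466%, and TATAAA in 7 (9.21%) and 15.7%. Stretches of 50 bases are shown for 4 members in which the palindrome, in capitals, lies upstream of the annotated gene, to show its setting. Each is read along the strand of its gene: Cox6a1 at chr5:115349090-115349139 (minus strand), Atp5l at chr9:44920943-44920992 (minus strand), Ndufa11 at chr17:56717683-56717732 (plus strand) and Ndufaf4 at chr4:24897951-24898000 (plus strand).
Cox6a1: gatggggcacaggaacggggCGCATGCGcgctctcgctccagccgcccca
Atp5l: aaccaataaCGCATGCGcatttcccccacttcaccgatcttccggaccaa
Ndufa11: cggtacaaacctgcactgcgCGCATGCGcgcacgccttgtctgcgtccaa
Ndufaf4: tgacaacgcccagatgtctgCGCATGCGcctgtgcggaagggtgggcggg
The 11 genes with the palindrome did not share a direction between cells and control embryos: log2 ratios ran from -4.20 for Ndufaf4 to 2.87 for Atp5j, with 4 below 0. Such matches describe the letters in the window only. The background was all genes, and no set of promoters of like base composition was compared.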

How the data were processed

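RNA was measured in 29 libraries: 9 control embryos, 8 HU embryos and 12 cumulus cells, grouped by their titles. The authors deposited raw counts per gene (24540 rows, of which 92 are ERCC spike-ins) and FPKM values; no column was left unmapped. The build was mm10 and the tools STAR 2.7.3a, FastQC and R 4.0.2, per the submitters' processing notes. Which counter, annotation and strand option were applied is not given in the sources used here. Deposited FPKM equalled count over library sum and length for 18588 of 18588 genes checked (tolerance 0.001). Total counts per library, given in the report, set the precision of low genes, and intervals cover counting error only.

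ERCC rows were left out. For HU against control, edgeR 4.0.16 (R 4.3.3) was run on the 17 embryos with TMM factors, filterByExpr, its quasi-likelihood test and no covariate, with Benjamini-Hochberg adjustment over 11476 genes and a threshold of 0.05. The SE comes from the F statistic. The procedure was tested on simulated data. Cumulus cells have no named animal, so their counts were summed and compared with the summed control embryos after adding 1 CPM, among genes at 10 CPM or more in either group, with no test. Folds against 0 counts use a floor of 3 counts over the group. Alternatives were DESeq2 1.42.0, its size factors, ERCC scaling, no filter, library sizes without Rn45s and mitochondrial rows, a replicate block, libraries left out, and count-based isoform shares. Leaving out cells 2, 10 and 11 together, and each cell in turn for isoform shares and single genes, was chosen after seeing the data.

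Positions and transcripts are from GENCODE M21 (GRCm38), matched by symbol for 92 of 92 members. Of these, 40 overlap another gene, 11 of them on the same strand, and 16 have a near-identical transcript elsewhere (blastn 2.17.0, at least 95% identity over at least 50% of the transcript). Coding sequences were aligned with mafft 7.526.

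The members, the pathway and marker lists and the rule for named genes were chosen with earlier results of these data known. The rule named, per complex, the 2 highest and the lowest detected member in control embryos, the smallest p per direction, the 2 largest ratios per direction in cells, and all tissue isoforms. Protein sequences were not used here.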

Additional observations from a re-analysis of the deposited data

Results flagged for a closer look

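A library was set apart where its gap to the nearest other library, divided by the range of its group, passed Dixon's 95% critical value. This held for 12 of 122 groups of embryos examined (9.84%). The critical value gives a chance rate of about 5% only for normally distributed values, which scaled counts need not be. For Cox8b, Cox8c and Ndufa4l2 a single embryo held all counts of its group, which passes this rule at any level. The share of groups set apart therefore cannot show an excess over chance. Values are TMM-scaled CPM unless another unit is given, each with the median of its group.

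Among complex V genes, Atp5d was at 56.0 in control embryo 5 (median 26.1), Atp5g1 at 484.5 in control embryo 3 (median 219) and Atp5g2 at 12.4 in HU embryo 1 (median 4.13). In complex I, Ndufa4 was at 285.9 in HU embryo 1 (median 103). Ndufaf1 was at 15.9 in control embryo 3 (median 2.28) and at 29.5 in HU embryo 7 (median 4.75). In complex III, Uqcr10 was at 84.4 in HU embryo 7 (median 31.1). Isoforms at 0 in the other embryos of their group were Cox8b at 0.307 in control embryo 7, Cox8c at 0.381 in control embryo 5 and Ndufa4l2 at 0.908 in HU embryo 2. Members together took 0.660% of counts in control embryo 5 (median 0.493%). Cox6a2 held 14.4% of the Cox6a FPKM in HU embryo 6 (median 4.33%). The cause of these values was not tested.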

How the results depend on the processing

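No alternative gave a called member between HU and control embryos. The count of members at an unadjusted p under 0.05 was 9 to 10 with DESeq2, with its size factors, with ERCC scaling, without the filter and without Rn45s and mitochondrial rows, 6 to 12 when 1 embryo was left out, and 5 with a replicate block, which drops control embryo 9. The share of all genes under that limit rose to 10.2% without the filter. All members with a count in an embryo were then tested, and the 9 under the limit were no larger a part of them. In the rest of the first group of settings the share of all genes was 5.26% to 5.83%. It was 3.76% to 8.2% when 1 embryo was left out and 4.73% with the block. The labels name no pairing by number. Same-numbered embryos correlated at -0.10 to 0.19, 1 of 8 pairs over 0.1, and 1 HU embryo correlated best with its own number. Whether same-numbered embryos shared a day, female or culture is not known. The cause of the lower count with the block was not tested. Under ERCC scaling the median log2 fold change was 0.19 over all genes, up from 0.04, and 0.31 over members, up from 0.19. With the block Ndufa13 was at 0.47 and Uqcrq at 0.36. For 18 named genes, all 414 alternative log2 fold changes kept their sign. These genes were chosen by their p-values in the same embryos, and the alternatives refit those embryos. The kept signs are therefore no separate check.

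The median log2 ratio of members in cells to control embryos (0.87) was 0.74 with 5 CPM added, 1.80 without Rn45s and mitochondrial rows (61 members at least 2-fold higher), 1.01 without cells 2, 10 and 11, and 0.78 to 0.98 with 1 cell left out. Shares in cells by raw counts were 24.7% for Atp5g1, 56.1% for Atp5g3, 0.707% for Cox4i2, 41.5% for Cox7a2l and 6.83% for Ndufa4l2; by counts Cox7a2l held 17.6% in controls and 13.3% in HU embryos, since counts weight isoforms by length. Without cells 2, 10 and 11 the FPKM shares were 0.000% for Cox6b2, 22.2% for Atp5g1, 57.8% for Atp5g3, 0.594% for Cox4i2, 31.0% for Cox7a2l and 3.48% for Ndufa4l2. With 1 cell left out, which was chosen after seeing the data, the ranges were 0.000% to 0.288% for Cox6b2, 17.1% to 21.2% for Atp5g1, 57.3% to 62.6% for Atp5g3, 0.564% to 1.65% for Cox4i2, 0.044% to 0.618% for Cox7a1, 28.3% to 31.1% for Cox7a2l and 3.35% to 5.45% for Ndufa4l2. Among members at 10 CPM or more, leaving out 1 cell moved 1 ratio over 1.5 times, that of Ndufaf3. Genes under 10 counts per embryo are limited by depth.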

Other observations

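The deposited FPKM of mitochondrially encoded subunits differed by over 2 orders of magnitude within the control embryos. How reads that map to several places were counted is not given in the sources used here, and mitochondrial DNA has nuclear copies, so the values are FPKM as deposited and are not read as RNA levels. By mean FPKM, mt-Co1 was at 4183, mt-Cytb at 7047, mt-Nd1 at 4293 and mt-Nd4 at 1344, while mt-Co2 was at 14.2, mt-Co3 at 11.5, mt-Atp6 at 14.8, mt-Nd3 at 6.42 and mt-Nd4l at 2.22. The low group was also low in HU embryos, with mt-Co2 at 12.7, mt-Co3 at 10.9 and mt-Atp6 at 13.7. In the cells mt-Co1 was at 1002 and mt-Co2 at 3.33. The cause was not tested.

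Among factors of the complexes that are not members by name, Cyct, the testis form of cytochrome c, was at 6.05 FPKM in control embryos and 6.55 FPKM in HU embryos and had no count in any cell, while the somatic Cycs was at 12.6, 13.6 and 5.07 FPKM in controls, HU embryos and cells. Cox17, a copper chaperone of complex IV, was at 66.7 FPKM in controls and 155 FPKM in cells, and Higd1a, a factor of complex IV, was at 45.3 and 7.55 FPKM. The inhibitor of complex V, Atpif1, was at 28.6 FPKM in controls, 32.7 FPKM in HU embryos and 67.8 FPKM in cells. These genes were chosen from the lists after their values were seen.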
